A study of Mus musculus with 13 samples.

Results

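The matrix metalloproteinases (MMPs), the ADAMTS proteases and their tissue inhibitors (TIMPs) were followed in the cerebral meninges of newborn *Pdgfc-/-; Pdgfra GFP/+* mice and littermate controls. Members were all genes whose symbol is Mmp, Adamts or Timp followed by a number. Of 46 such genes, 44 had a probe set that carries a single gene symbol on the Mouse Gene 1.0 ST array (22 MMPs, 18 ADAMTS genes and 4 TIMPs), out of 19938 genes tested in the series. *Mmp15* and *Adamts2* were not analysed here. Where a gene had several probe sets, the brightest was used.

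MMPs are zinc-dependent proteases that cut collagens, laminins and other matrix proteins, and most are made as inactive precursors that another protease has to open. ADAMTS proteases carry thrombospondin repeats that hold them in the matrix, where some cut proteoglycans such as versican, some trim procollagen and some act on fibrillin microfibrils or von Willebrand factor. TIMPs block the active site of MMPs, and TIMP3 also blocks several ADAMTS and ADAM proteases. One site in the meninges where enzymes of this kind can act is the pial basement membrane. It is the sheet of laminin and type IV collagen on which the end feet of cortical radial glia rest. Where the members act was not measured here.

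The mutants (4 mice) lacked both copies of *Pdgfc*, which encodes a ligand of the receptor PDGFRα, and carried 1 *Pdgfra* allele in which GFP replaces the receptor, so that 1 working receptor gene was left. The control group (9 mice) pooled the rest of the litter. Some of these were *Pdgfc-/-*, *Pdgfc+/-* or *Pdgfc+/+* with an intact *Pdgfra* gene, and others carried *Pdgfra GFP/+* together with either *Pdgfc+/+* or *Pdgfc+/-*. Some controls thus shared a mutant allele with the mutants, but the labels do not state which control had which genotype. All 13 mice were newborn, of C57BL6 background and from 1 litter, both alleles were germline, and RNA came from whole dissected cerebral meninges rather than from sorted cells. Each array is 1 mouse, so p-values measure the spread between mice of this litter.

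Values below are PLIER intensities, the probe set summaries that the authors deposited on a linear scale. Fold changes are on the scale of log2(intensity + 16), mutant minus control, with their standard error (SE) and the adjusted p of limma's moderated test over all 19938 genes. A fold given below comes from this scale and not from the means printed beside it, and the added constant makes it understate the change of dim genes. A gene is said to have risen or fallen where that adjusted p is under 0.05. *Pdgfc* averaged 25.7 ± 3.41 in mutants and 164 ± 86.8 in controls (SD, n = 4 and 9), a fall of 3.59-fold on the log2(intensity + 16) scale (adjusted p = 0.0077), although control 2 read only 5.88. *Pdgfra* averaged 1078 ± 352 in mutants and 1764 ± 429 in controls (adjusted p = 0.0276). The median intensity of an array was 56.0 to 89.7 in mutants and 44.1 to 89.0 in controls, so brightness did not split the groups. *Xist*, which is transcribed only from an inactive X chromosome, read 2.24 to 4.77 in mutants and between 4.78 and 1019.6 in controls, where 3 controls were as low as single digits, and the groups therefore differed in sex.

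The tissue itself differed in its cell type markers. All 14 pan-neuronal markers measured rose in mutants (median log2 fold change 3.10), and their summed intensity was 14500 to 17742 in mutants and 1524 to 4303 in controls. Of 18 fibroblast markers of the meninges, 2 rose and 1 fell, with summed intensities of 33190 to 46194 in mutants and 32813 to 45008 in controls. Of 12 endothelial markers, 8 fell (sums of 5775 to 7654 in mutants and 8220 to 17403 in controls), and of 8 markers of border macrophages, the macrophages that live in the meninges, 7 fell (1876 to 3995 in mutants and 6166 to 8667 in controls). Of 9 microglia markers 6 fell and 1 rose, of 10 neutrophil markers 2 fell, and no osteoclast marker passed the test. Over all genes 8.58% rose and 6.31% fell, and the marker lists were not tested against these shares. No marker of these lists was at 0 in any mouse. In bulk RNA of this kind, fewer cells of a type and less RNA per cell cannot be told apart.

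Most of the protease system did not pass the test, and the members that did went in both directions. Across all genes 14.9% were called, 8.58% as risen and 6.31% as fallen. Of the 44 members, 3 rose (*Mmp24*, *Mmp19* and *Adamts3*), 6 fell (*Mmp23*, *Adamts12*, *Mmp2*, *Adamts7*, *Adamts10* and *Timp3*) and 35 were not called. The median log2 fold change was -0.02 over the members and 0.00 over all genes. At an unadjusted p under 0.05 there were 15 of the 44 members, against 23.6% of all genes, and 9 of the 15 held after adjustment. The groups did not overlap in 3 members, with *Mmp24* higher in every mutant than in any control and *Mmp23* and *Adamts12* lower. Across all genes the groups did not overlap in 9.44%, with the mutants higher in 6.4% and lower in 3.04%. Many members were dim, with 26 under the median brightness of all genes and 8 among the dimmest 25%, here called dim.

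**Figure D1:**
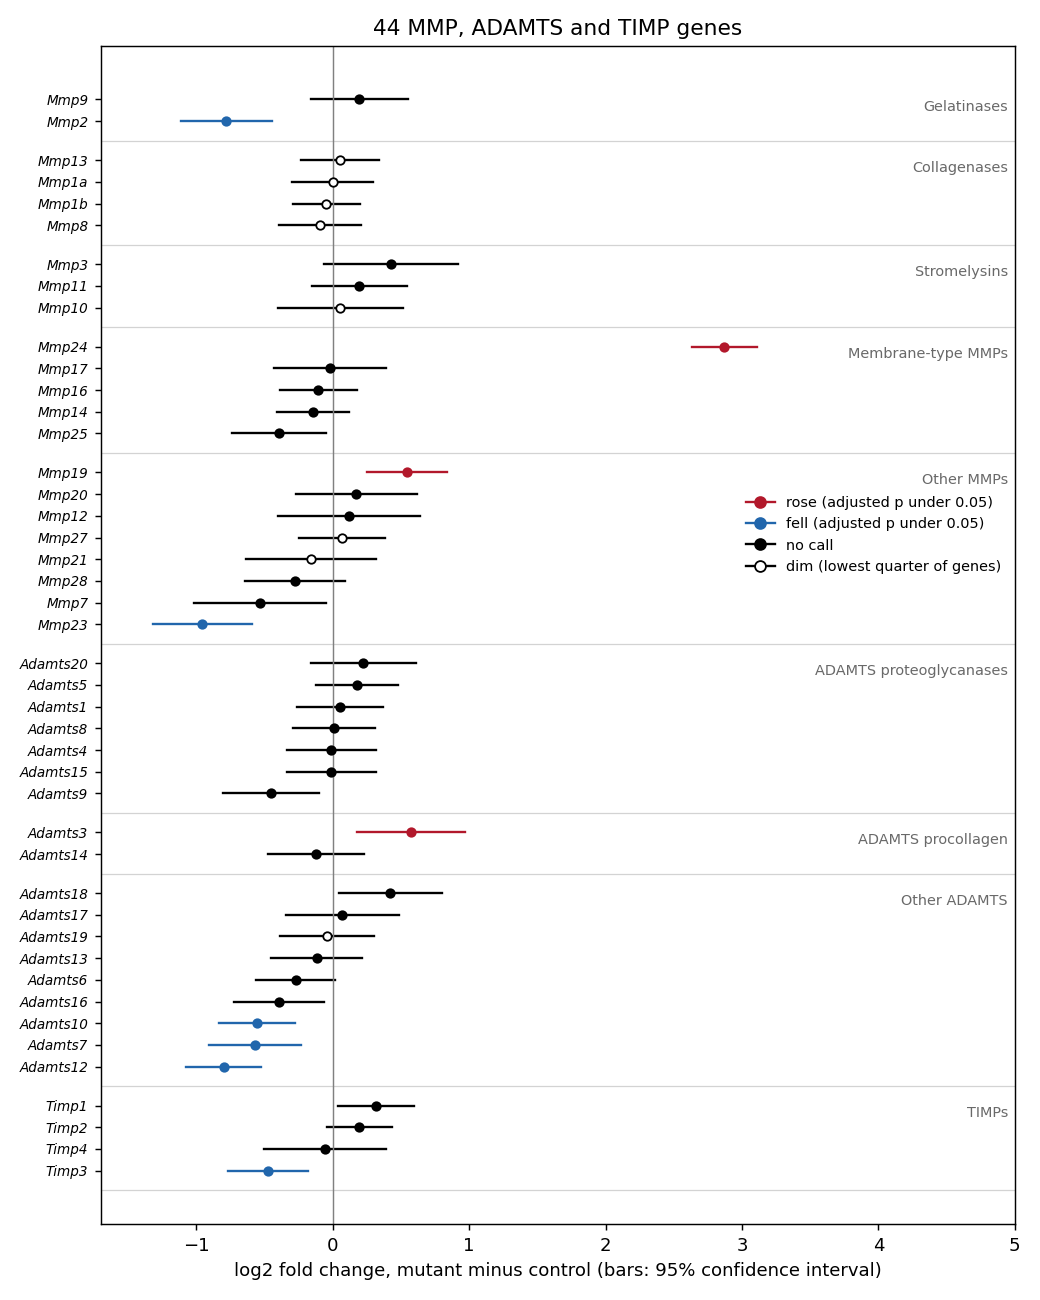
Log2 fold change, mutant minus control, of the 44 members by role, with the 95% confidence interval of each as a bar. Red points rose, blue points fell, black points were not called and open points are dim. *Mmp24* stands at 2.87, while all other members lie between -0.96 and 0.57.

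The largest change in the system was that of *Mmp24*, which encodes MT5-MMP, a membrane-anchored protease known mainly from neurons, where it cuts cadherins at synapses. It read 4648, 5154, 4196 and 4788 in the 4 mutants, against a lowest value of 543, a median of 630.4 and a highest value of 705 in the 9 controls. Every mutant lay far above every control, and the spread within each group was small. The mean was 4696 ± 396 in mutants and 628 ± 53.0 in controls, a 7.32-fold rise (log2 fold change 2.87, SE 0.11, adjusted p = 4.83e-12). Leaving out any 1 mouse kept the log2 fold change between 2.83 and 2.92. The rise moved with the pan-neuronal markers given above, and their part in it was not tested. The threshold stated in the methods, an unadjusted p under 0.05 together with a fold change over 2, was passed by *Mmp24* alone on the log2(intensity + 16) scale, and by *Mmp24* and *Mmp23* where the fold was the ratio of the group means.

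The other 4 membrane-type MMPs measured were not called. *Mmp14* encodes MT1-MMP, the principal activator of MMP2 on the cell surface. It read 1925, 2446, 1987 and 2696 in mutants, against 2229 at the lowest, 2404 at the median and 3042 at the highest in controls. Mutants 1 and 3 lay below all controls while mutants 2 and 4 lay above the control median, and the log2 fold change was -0.15 with a 95% interval of -0.41 to 0.12 (adjusted p = 0.657). *Mmp16* and *Mmp17* had log2 fold changes of -0.11 and -0.02. *Mmp25*, known from leukocytes, had one of -0.39 at an adjusted p of 0.135.

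The promoter of *Mmp24* is shown because this gene carried the largest change, next to that of *Adamts12*, a member that fell without overlap. Both are RefSeq windows of 300 bases on GRCm38.p6, with 250 bases before the start and 50 after it, at chr2:155775092-155775391 and chr15:11064523-11064822, both on the plus strand. Capitals mark the motif GGGCGG, the core of a GC box, on either strand.
Mmp24: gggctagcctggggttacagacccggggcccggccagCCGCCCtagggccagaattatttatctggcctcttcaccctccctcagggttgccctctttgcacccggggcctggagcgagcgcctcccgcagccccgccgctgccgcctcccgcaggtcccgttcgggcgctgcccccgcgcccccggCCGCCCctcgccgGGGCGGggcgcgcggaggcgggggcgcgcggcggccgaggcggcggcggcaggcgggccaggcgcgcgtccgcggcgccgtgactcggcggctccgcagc
Adamts12: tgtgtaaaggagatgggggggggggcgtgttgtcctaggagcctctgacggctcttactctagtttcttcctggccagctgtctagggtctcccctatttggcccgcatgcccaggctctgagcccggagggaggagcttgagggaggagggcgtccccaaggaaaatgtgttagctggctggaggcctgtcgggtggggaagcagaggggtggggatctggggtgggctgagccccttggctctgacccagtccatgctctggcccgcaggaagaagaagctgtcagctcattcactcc
The *Mmp24* window holds this motif 3 times and the *Adamts12* window does not hold it. Among called members with a window, it was in 2 of 2 that rose and in 1 of 3 that fell (*Timp3*, which holds it 2 times). These are too few windows to compare. Of all 27025 promoters of this length 35.9% hold it at least once, and a match or its absence describes the letters only.

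The gelatinases, which cut denatured collagen and type IV collagen, did not move together. *Mmp2*, gelatinase A, is made in quantity by fibroblasts. It read 344, 426, 315 and 525 in mutants, against 502, 729 and 856 as the lowest, median and highest of the controls. Only mutant 4 reached into the control range, where control 3 was lower. *Mmp2* averaged 403 ± 94.6 in mutants and 698 ± 116 in controls, a 1.72-fold fall (log2 fold change -0.78, SE 0.16, adjusted p = 0.0014). *Mmp9*, gelatinase B, is made mainly by leukocytes and osteoclasts. It read 72.5, 54.2, 35.7 and 53.5 in mutants, against 30.4, 43.0 and 70.9 as the lowest, median and highest in controls. The ranges overlapped almost entirely and the log2 fold change was 0.19 (95% interval -0.16 to 0.55, adjusted p = 0.654).

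Among the MMPs that belong to no larger class, *Mmp19* rose and *Mmp23* fell. *Mmp23* encodes an unusual MMP that is released from the membrane as it matures. It read 56.0, 39.3, 36.1 and 54.1 in mutants, against 66.8, 107 and 138 as the lowest, median and highest in controls. All mutants lay below all controls. The mean was 46.4 ± 10.2 in mutants and 106 ± 25.7 in controls, a 2.30-fold difference between the means and 1.94-fold lower on the log2(intensity + 16) scale (log2 fold change -0.96, SE 0.17, adjusted p = 0.0004). *Mmp19*, which encodes a protease of basement membrane components, read 74.9, 102, 86.4 and 123 in mutants, against 49.3, 60.2 and 77.0 as the lowest, median and highest in controls. Mutant 1 lay just under the highest control and the other 3 above all of them. The rise was 1.46-fold (log2 fold change 0.54, SE 0.14, adjusted p = 0.0095). It was lost without mutant 4 (adjusted p = 0.0536) and in a fit that held *Xist* as a covariate (adjusted p = 0.165).

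**Figure D2:**
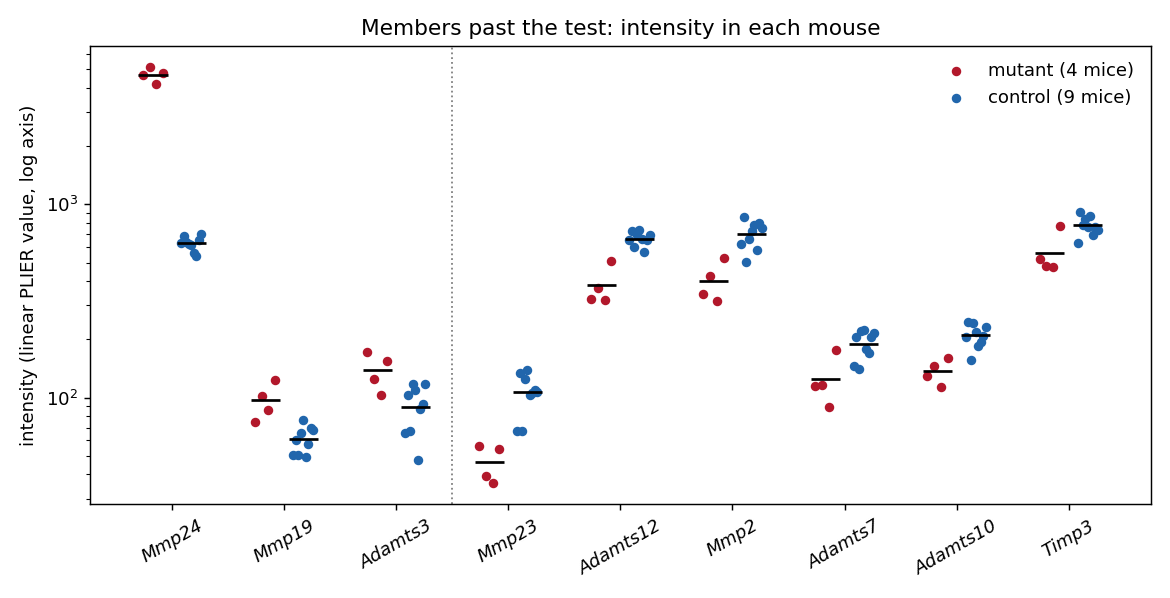
Intensity of the 9 called members in each of 4 mutants (red) and 9 controls (blue) on a log axis, with the group mean as a bar. The dotted line separates the 3 genes that rose from the 6 that fell. The groups are apart for *Mmp24*, *Mmp23* and *Adamts12* and meet or overlap in the other 6.

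Collagenases, stromelysins and the remaining MMPs were not called. The 4 collagenases, which make the first cut in fibrillar collagen (*Mmp1a*, *Mmp1b*, *Mmp8* and *Mmp13*), were all dim and had log2 fold changes of -0.09 to 0.05. The 3 stromelysins had log2 fold changes of 0.05 (*Mmp10*), 0.19 (*Mmp11*) and 0.43 (*Mmp3*). *Mmp7*, matrilysin, had the lowest log2 fold change of the uncalled members at -0.53, with mutant values of 53.2, 21.3, 8.40 and 41.2 against 27.2 to 73.7 in controls (adjusted p = 0.151). Mutant 1 lay well inside the control range, and without it the log2 fold change was -0.76 (adjusted p = 0.0378).

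Of the MMP genes, 10 lie together on chromosome 9 (*Mmp1a*, *Mmp1b*, *Mmp3*, *Mmp7*, *Mmp8*, *Mmp10*, *Mmp12*, *Mmp13*, *Mmp20* and *Mmp27*). None of them was called, beside 14.9% of all genes. Only *Mmp7* had an unadjusted p under 0.05, beside 23.6% of all genes. All 10 were under the median brightness of all genes, and 6 were dim. Their log2 fold changes ran from -0.53 to 0.43 with a median of 0.05. Their promoters differ from those of the other members in their letters, so those of *Mmp3* and *Mmp13* are shown, at chr9:7445572-7445871 and chr9:7272264-7272563 on the plus strand of GRCm38.p6. Capitals mark a TATAAA box and TGANTCA, the motif bound by AP-1 factors, where N is any base.
Mmp3: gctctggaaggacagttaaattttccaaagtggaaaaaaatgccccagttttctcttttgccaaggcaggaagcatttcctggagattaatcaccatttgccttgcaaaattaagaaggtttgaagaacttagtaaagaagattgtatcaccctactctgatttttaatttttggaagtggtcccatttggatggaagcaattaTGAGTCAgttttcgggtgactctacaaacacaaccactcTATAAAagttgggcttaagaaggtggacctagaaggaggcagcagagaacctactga
Mmp13: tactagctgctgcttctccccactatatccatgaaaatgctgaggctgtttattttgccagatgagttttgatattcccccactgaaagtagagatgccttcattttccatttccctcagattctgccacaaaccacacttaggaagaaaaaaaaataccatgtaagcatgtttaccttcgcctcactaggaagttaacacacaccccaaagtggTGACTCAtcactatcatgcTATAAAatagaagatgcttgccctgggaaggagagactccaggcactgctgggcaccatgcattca
On either strand TATAAA was in 8 of the 10 windows of this cluster (80%), against 2 of 20 windows of other members (10%) and 14.2% of all promoters. TGANTCA was in 7 of 10 (70%), against none of the 20 and 7.93% of all. GGGCGG was in none of the 10, against 15 of 20 (75%) and 35.9% of all. The TATAAA box and TGANTCA do not overlap in either window shown. A RefSeq window was found for 30 of the 44 members.

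The ADAMTS genes fall into 3 roles, and the calls came from 2 of them. The 7 proteoglycanases, which cut versican and aggrecan, had no call (*Adamts1*, *Adamts4*, *Adamts5*, *Adamts8*, *Adamts9*, *Adamts15* and *Adamts20*). Their log2 fold changes ran from -0.46 to 0.22 with a median of 0.01. *Adamts9*, which cuts versican and is expressed along vessels, had the lowest. It read 346, 371, 321 and 604 in mutants, against 379, 574 and 673 as the lowest, median and highest in controls. Mutants 1 to 3 lay below every control and mutant 4 lay above most of them, which left the log2 fold change at -0.46 (SE 0.17, adjusted p = 0.0815). Without mutant 4 it was -0.65 (adjusted p = 0.0086).

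The array holds 6 probe sets for *Adamts9*, and mutant 4 stood apart in each. In all 6 mutant 4 was above the other mutants, and in all 6 the other 3 mutants were below every control. Fitted one by one, the 6 probe sets had log2 fold changes of -0.77 to -0.46, and 3 of them passed the test. With the mean of the probe sets in place of the brightest, the adjusted p was 0.0379. Probe sets of 1 gene read the same RNA and are not replicates. The 5 probe sets of *Adamts17* had log2 fold changes of 0.07 to 0.17 and none was called.

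Of the procollagen N-proteinases 2 were measured, and *Adamts3* rose. Its product removes the amino-terminal propeptide of procollagen, takes part in the activation of VEGF-C and cuts reelin in mouse brain. At the brightest probe set it read 171, 125, 104 and 155 in mutants, against 47.5, 92.7 and 117 as the lowest, median and highest in controls. Mutant 3 lay within the control range and the other mutants above it. The rise was 1.49-fold (log2 fold change 0.57, SE 0.19, adjusted p = 0.0486) and was lost when any 1 of 9 mice was left out (mutants 1, 2 and 4 and controls 1, 2, 3, 6, 7 and 8), with the adjusted p between 0.0322 and 0.191 over all 13 such fits. It was also lost in the fit with *Xist* (adjusted p = 0.247).

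The brightest probe set showed one of the smaller changes among the 16 of *Adamts3*. All 16 were higher on average in mutants, with log2 fold changes of 0.39 to 1.38 and a median of 0.73. Of these 11 passed the test, 15 had an unadjusted p under 0.05, and in 7 every mutant was above every control. The probe set with the largest change read 118, 119, 106 and 116 in mutants and 22.3 to 49.96 in controls. Among the known substrates of ADAMTS3, *Reln* rose 13.8-fold, with 1697 to 2016 in mutants and 73.4 to 193 in controls. *Vegfc*, which encodes VEGF-C, was not called (log2 fold change -0.22, adjusted p = 0.510). *Adamts14*, the other procollagen N-proteinase measured, did not pass the test at -0.12 on the log2 scale (adjusted p = 0.861).

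**Figure D3:**
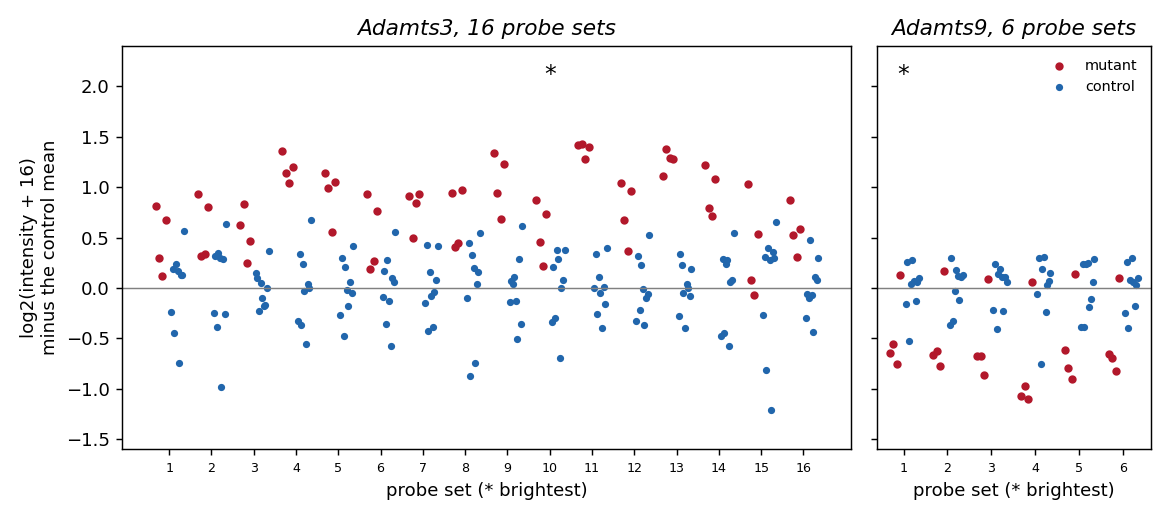
Each probe set of *Adamts3* (16) and *Adamts9* (6), as log2(intensity + 16) minus the mean of the controls, for 4 mutants (red) and 9 controls (blue). All 16 *Adamts3* probe sets are higher on average in mutants. In each *Adamts9* probe set 3 mutants lie together below every control and mutant 4 lies among the controls.

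The remaining ADAMTS genes held 3 falls. *Adamts12*, whose product cuts cartilage oligomeric matrix protein, read 324, 370, 321 and 509 in mutants, against 570.2, 660 and 734 as the lowest, median and highest in controls. All mutants were below all controls. The mean was 381 ± 88.3 in mutants and 665 ± 54.3 in controls, a 1.74-fold fall (log2 fold change -0.80, SE 0.13, adjusted p = 0.0002). *Adamts10*, which acts on fibrillin microfibrils, read 130, 145, 114 and 161 in mutants, against 156, 208 and 247 as the lowest, median and highest in controls. Mutant 4 alone was above the lowest control, and the fall was 1.47-fold (log2 fold change -0.56, SE 0.13, adjusted p = 0.0064). In the fit that held *Xist* as a covariate its adjusted p was 0.0603.

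*Adamts7*, which also cuts cartilage oligomeric matrix protein, read 114, 117, 89.9 and 175 in mutants, against 140, 205 and 225 as the lowest, median and highest in controls. The first 3 mutants were below all controls and mutant 4 was among them. The fall was 1.48-fold (log2 fold change -0.57, SE 0.16, adjusted p = 0.0197). It was lost without mutant 1, 2 or 3 (adjusted p = 0.062, 0.0606 and 0.103) and with the *Xist* covariate (adjusted p = 0.134). The other 6 genes of this role were not called. Their log2 fold changes ran from -0.39 for *Adamts16* to 0.42 for *Adamts18*, and *Adamts13*, which cuts von Willebrand factor, had one of -0.12 while *Vwf* itself fell 1.65-fold. *Comp*, which encodes cartilage oligomeric matrix protein, was dim and was not called (log2 fold change -0.26, adjusted p = 0.438).

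Of the inhibitors only *Timp3* was called. TIMP3 binds the matrix and has the widest range of targets in its family. It read 524, 479, 476 and 775 in mutants, against 632, 768 and 912 as the lowest, median and highest in controls. Mutants 1 to 3 were below all controls, and mutant 4 sat at the control mean. The mean was 563 ± 143 in mutants and 778 ± 87.2 in controls, a 1.39-fold fall (log2 fold change -0.48, SE 0.14, adjusted p = 0.0269). It was lost without mutant 1, 2 or 3 (adjusted p = 0.0823, 0.112 and 0.102), with the *Xist* covariate (adjusted p = 0.375) and with arrays centred on reference genes (adjusted p = 0.104).

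*Timp1*, an inducible inhibitor, read 387, 600.4, 443 and 457 in mutants, against 310.3, 367 and 453 as the lowest, median and highest in controls. Mutants 2 and 4 were above all controls. The log2 fold change was 0.32 (95% interval 0.04 to 0.60, adjusted p = 0.134). *Timp2*, which both inhibits MMP2 and helps MMP14 to activate it, read 1222, 1506, 1273 and 1519 in mutants, against 1117, 1168 and 1344 as the lowest, median and highest in controls. Mutants 2 and 4 were above all controls here too, and the log2 fold change was 0.19 (95% interval -0.05 to 0.44, adjusted p = 0.363). Both genes passed the test as higher in mutants when arrays were quantile normalised or centred on reference or fibroblast genes. Under reference genes the log2 fold changes were 0.50 and 0.38, a setting that moved the median of all genes to 0.18. Centred on the array median, they were 0.22 and 0.10 without a call (adjusted p = 0.304 and 0.641). With array weights neither gene was called (adjusted p = 0.0639 and 0.199).

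*Timp4* read 130.3, 72.3, 66.2 and 118 in mutants, against 47.6, 101 and 148 as the lowest, median and highest in controls, and these ranges overlapped throughout (log2 fold change -0.06, adjusted p = 0.979). In the RefSeq annotation *Timp1*, *Timp3* and *Timp4* each lie inside a synapsin gene, which encodes a protein of synaptic vesicles. All 3 host genes rose without overlap. *Syn1* rose 3.56-fold, *Syn2* 2.82-fold and *Syn3*, the host of *Timp3*, 1.71-fold. *Timp3* thus fell while its host rose, and whether host transcripts add to the inhibitors' probe sets was not tested.

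Among the 6 genes that fell, mutant 4 was the least changed mutant in 5 (*Adamts10*, *Adamts12*, *Adamts7*, *Mmp2* and *Timp3*) and mutant 1 in *Mmp23*. The deviation of mutant 4 from the control mean ranged over these 5 from 0.00 for *Timp3* to -0.38 for *Mmp2* on the log2 scale, while that of mutant 3 ranged from -0.68 to -1.09. Mutant 4 also had the highest *Pdgfra* value among mutants (1561, against 788 to 1116 in the other 3). Its mean log2 level was the highest for markers of border macrophages (8.40, against 7.48 to 7.64) and fibroblasts (10.97, against 10.52 to 10.84). The same held for endothelial (8.94, against 8.54 to 8.84) and microglia markers (7.65, against 7.21 to 7.55). For pan-neuronal and mural markers another mutant was higher. The median intensity of its array was 85.9, against 89.7, 67.3 and 56.0 in mutants 1, 2 and 3. The part of marker levels or array brightness in the protease values of mutant 4 was not tested. Among the 3 genes that rose mutant 4 was not the least changed in any.

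Changes in a protease were also set against its inhibitor as the difference of their log2(intensity + 16) values within the same array. The level of such a difference depends on the probes and carries no meaning, so only its shift between groups is read. Of 6 such differences, 5 shifted (two-sided exact permutation of the group labels among the 13 mice, adjusted over the 6). *Mmp2* minus *Timp2* was -1.96 to -1.50 in mutants and -1.14 to -0.47 in controls, a shift of -0.98 (SE 0.13, adjusted p = 0.0084 by the exact test). On their own *Mmp2* had a log2 fold change of -0.78 and *Timp2* one of 0.19, so this shift holds mostly the fall of *Mmp2*. *Mmp14* minus *Timp2* was 0.64 to 0.82 in mutants and 0.89 to 1.34 in controls, a shift of -0.34 (SE 0.08, adjusted p = 0.0084 by the exact test). In both differences all 4 mutants lay below all 9 controls, so that *Mmp14* and *Timp2*, neither of which was called alone, moved apart from each other. Both differences hold the same *Timp2* values. The unadjusted p of 0.0028 is the smallest this design allows.

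The differences between aggrecanases and *Timp3* shifted the other way. On their own *Adamts1*, *Adamts4* and *Adamts5* were not called, with log2 fold changes of 0.05, -0.01 and 0.17. That of *Timp3* was -0.48, so the shifts below hold mostly its fall and not a rise of the proteases. *Adamts1* minus *Timp3* shifted by 0.53 (SE 0.19), *Adamts4* minus *Timp3* by 0.46 (SE 0.16) and *Adamts5* minus *Timp3* by 0.65 (SE 0.22), with adjusted p of 0.0336, 0.0294 and 0.0294 by the exact test. These groups overlapped, with 1, 3 and 3 of the 4 mutants above all controls, and all 3 differences hold the same *Timp3* values. Each lost the call without mutant 1, 2 or 3. *Mmp9* minus *Timp1* shifted by -0.12 (SE 0.20), and its groups overlapped (adjusted p = 0.590 by the exact test).

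**Figure D4:**
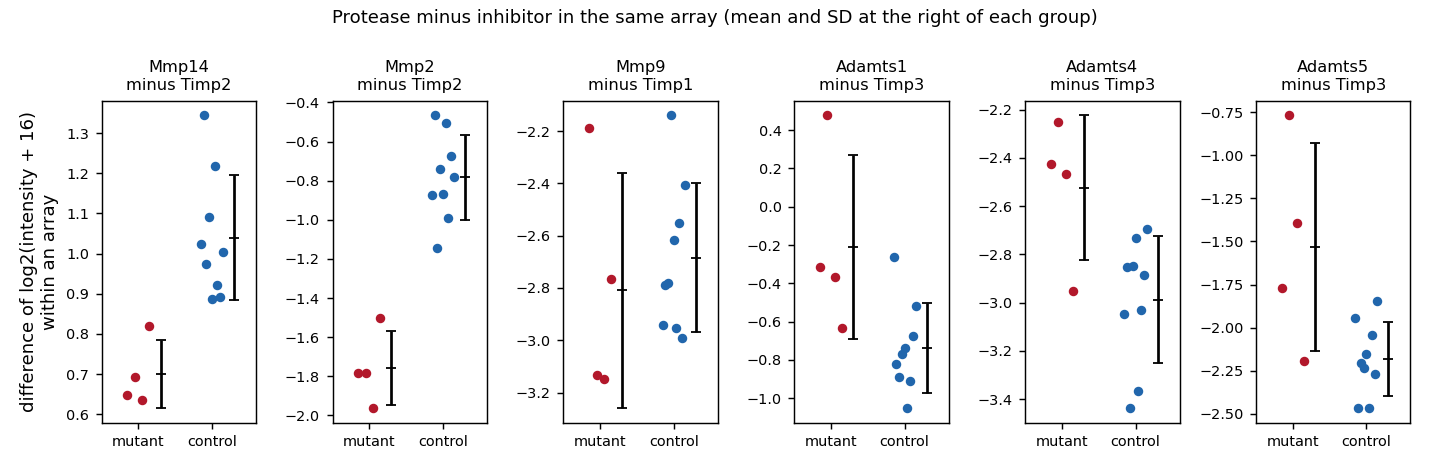
Difference of log2(intensity + 16) between a protease and an inhibitor in the same array, for 4 mutants (red, left) and 9 controls (blue, right), with the mean and SD beside each group. The mutants lie below all controls in *Mmp14* minus *Timp2* and *Mmp2* minus *Timp2*, and overlap with controls in the other 4.

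Genes that act with these proteases were counted from lists of 17 regulators, 17 substrates and 10 ADAM genes. For comparison, 8.58% of all genes rose and 6.31% fell, and sets this small were not tested against these shares. Of the 16 regulators measured none rose and 2 fell. *Plau*, the urokinase that makes plasmin and so helps to open MMP precursors, read 76.5, 107, 85.5 and 96.0 in mutants, against 186, 279 and 326 as the lowest, median and highest in controls. All mutants were far below all controls (2.63-fold lower, log2 fold change -1.40, SE 0.15, adjusted p = 5.89e-07). *Adamtsl3*, an ADAMTS-like matrix protein without a protease domain, was 2.07-fold lower, also without overlap.

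Of the 17 substrates 3 rose and 1 fell, beside 8.58% and 6.31% of all genes. Beside *Reln*, the fibrillar collagens *Col3a1* and *Col1a1* rose 1.45-fold and 1.42-fold, and *Vwf*, a product of endothelial cells, fell. *Col1a1* and *Col3a1* are also among the fibroblast markers. Of the 10 ADAM genes, *Adam22* and *Adam23*, which encode neuronal proteins without protease activity, rose 1.83-fold and 1.62-fold. *Adam17*, the sheddase of tumour necrosis factor that TIMP3 inhibits, was 1.52-fold lower and *Adam12* 1.45-fold lower. *Vwf* fell together with the endothelial markers, and *Reln*, *Adam22* and *Adam23* rose together with the pan-neuronal markers given above. The part of those cells in these values was not tested.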

How the data were processed

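Meningeal RNA of 13 newborn mice (4 mutants, 9 controls) was profiled on the Affymetrix Mouse Gene 1.0 ST array. The authors deposited PLIER intensities on a linear scale, which were used as deposited. The PLIER version and the array's scaling are not given in the sources used here. Of 35557 probe sets, 21789 carried 1 gene symbol in GEO's platform table, 1621 several and 12147 none there, and 21698 were matched to RefSeq (GRCm38.p6) by gene ID. The brightest probe set was kept for each of 19938 genes. Log2(intensity + 16) was fitted with limma 3.58.1 (R 4.3.3, lmFit and eBayes, no covariate) and adjusted by Benjamini-Hochberg. Probe sets of 1 member were fitted over all 21789. Differences within arrays were tested with SciPy 1.17.1. A gene was called dim in the lowest 25% of mean brightness (an intensity under 38.0).

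The methods named a t-test, which was run as an alternative among 30 other settings. The limma step was tested on simulated data. Members passing the test, the gelatinases, *Mmp14* and the TIMPs are given by mouse or range, and others by role. The members and lists were chosen with earlier results of these data known. With 13 arrays, their number limits the precision.

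Replicate numbers did not pair mutants with controls: deviations of same-numbered mice correlated at -0.34, 0.16, 0.31 and -0.09.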

Additional observations from a re-analysis of the deposited data

Results flagged for a closer look

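In 88 groups of mice (44 members in mutants and in controls), 5 held a mouse that stood apart from the rest of its group by Dixon's criterion, where chance gives about 1 in 20. *Adamts13* read 64.5 in mutant 1, against 44.3 to 45.7 in the other mutants. *Adamts15* read 213 in control 6, against 278 to 337 in the other controls. *Adamts18* read 37.9 in control 6, against 63.2 to 100.0 in the other controls, and this array had the lowest median intensity of all (44.1). *Adamts5* read 193 in control 9, against 145 to 165 in the other controls. *Mmp8* read 34.8 in control 2, against 13.5 to 22.01 in the other controls. None of these 5 genes was called.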

How the results depend on the processing

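No called value changed direction under any of 30 alternative settings with adjusted p-values, and 22 members without a call changed sign in at least 1 setting. *Mmp24* was called in all 30, and *Mmp23* in all of these except the one that leaves out the dimmer 50% of genes, where it was not tested. *Mmp2* and *Adamts12* lost the call with unequal variances (adjusted p = 0.0848 and 0.0942), and *Adamts10* with the *Xist* level as a covariate. Unequal variances also lost *Mmp19*, *Adamts7* and *Timp3* (adjusted p = 0.137, 0.228 and 0.279). Centring on reference genes lost *Adamts7* (adjusted p = 0.0834), and leaving out the 4 arrays of lowest median intensity lost *Timp3* (adjusted p = 0.0671). *Adamts3* lost it under the methods' t-test after Benjamini-Hochberg, unequal variances, array weights and a constant of 1 (adjusted p = 0.107, 0.141, 0.0786 and 0.0836).

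The number of members that rose was 1 with unequal variances, with the dimmer 50% of genes left out, with the *Xist* covariate and under the methods' t-test at their threshold, 5 with arrays centred on reference or on fibroblast genes, 6 after quantile normalisation, and 1 to 3 when 1 mouse was left out. The number that fell was 2 with unequal variances, 3 with the *Xist* covariate, 0 under the methods' t-test at their threshold with the fold on the log2(intensity + 16) scale (812 of all genes passed it), 11 with array weights, 12 after quantile normalisation or centring on the array median, and 4 to 7 when 1 mouse was left out. With that fold taken as the ratio of mean intensities, a setting chosen after seeing the data, 1 member rose and 1 fell, and 1006 of all genes passed; of regulators, substrates and ADAM genes 1 rose and 2 fell. Beside the median of 0.00, all genes had a median log2 fold change of -0.11 with array weights, -0.09 centred on the array median, -0.06 after quantile normalisation and 0.09 centred on fibroblast genes. The calls over all genes were 1710 higher and 1258 lower in mutants as reported, 3638 and 855 under the reference gene scaling, 3097 and 1606 under the fibroblast scaling, 1808 and 2862 under the array median scaling, and 2542 and 3773 after quantile normalisation. *Adamts9* passed the test as lower in mutants in 7 settings beside those without mutant 4 or control 3.

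Of regulators, substrates and ADAM genes (5 rose, 5 fell), the number that rose was 3 with unequal variances, 9 and 8 under the reference and fibroblast scalings, 2 with the *Xist* covariate, 3 with the replicate block, 1 under the methods' threshold, and 3 to 6 without 1 mouse. The number that fell was 3, 3, 8, 2, 2 and 2 in these settings, 9 with array weights, 8 with an intensity trend, 15 after quantile normalisation or centring on the array median, and 3 to 8 without 1 mouse. *Pdgfc* lost the call with log2 fold changes of -1.84 (the methods' t-test with Benjamini-Hochberg, and an intensity trend), -2.19 (constant 1) and -1.30 (replicate block), and kept it at -2.19 to -1.72 without 1 mouse. *Pdgfra* lost it at -0.71 (the same t-test, and unequal variances), -0.53 (reference genes), -0.72 (constant 1), -0.62 (*Xist* covariate) and -0.53 (replicate block), and ranged from -0.90 to -0.58 without 1 mouse, with the call lost without mutant 1, 2 or 3 or control 2 (adjusted p up to 0.132).

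After quantile normalisation *Adamts1*, *Adamts4* and *Adamts5* minus *Timp3* lost the call at 0.50, 0.35 and 0.54, and they ranged over 0.30 to 0.67, 0.37 to 0.61 and 0.40 to 0.87 without 1 mouse. With the replicate number as a block they lost it at 0.48, 0.52 and 0.68, as did *Mmp14* minus *Timp2* at -0.41. The replicate block, which rests on a number only, kept 6 of the 9 members and lost *Adamts3*, *Adamts7* and *Timp3*. The cause of these differences was not tested.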
